A study of Mus musculus with 6 samples.

Results

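The miRNAs described here are the mature strands of 3 mouse hairpins, miR-146a, miR-146b and miR-155. They were taken by name from a small-RNA count table of whole thymus, and all 6 strands (the 5p and the 3p strand of each hairpin) were among the 1390 miRNAs that the table lists. Irradiated C57BL wild-type mice received 6 Gy of X-rays, and their thymus was collected after 24 h. Control C57BL wild-type mice of the same age, 5 weeks, were not exposed, and n = 3 mice per group served as replicates. Every library was made from the whole organ, so a level sums over all of its cell types, and fewer cells of a type cannot be told apart from less RNA per cell. Levels are relative to the other miRNAs of a library, so more copies per cell cannot be told apart from a loss of other cells.

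These miRNAs belong to the inflammatory response. When Toll-like or cytokine receptors activate the transcription factor NF-kB, the genes of miR-146a and miR-155 are transcribed more. MiR-146a and miR-146b lower the adaptor proteins TRAF6 and IRAK1, which lie upstream of NF-kB, and so act as a brake on it. MiR-155 lowers the inhibitors SOCS1 and SHIP1 and so favours immune activation, and it is needed for normal T-cell and B-cell responses. In each hairpin the 5p strand is the one usually loaded into Argonaute as the guide, and most copies of the 3p strand are degraded.

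The mature strands are shown because their first bases fix which messenger RNAs they recognise. Each is written 5′ to 3′ with its seed (bases 2 to 8) in capitals, from RefSeq on GRCm38.p6, and each of the 6 was identical to the sequence in the deposited table.
mmu-miR-146a-5p: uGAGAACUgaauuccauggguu
mmu-miR-146b-5p: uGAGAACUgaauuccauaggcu
mmu-miR-155-5p: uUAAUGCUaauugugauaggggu
mmu-miR-146a-3p: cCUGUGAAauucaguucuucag
mmu-miR-146b-3p: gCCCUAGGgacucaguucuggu
mmu-miR-155-3p: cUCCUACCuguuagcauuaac
MiR-146a-5p and miR-146b-5p share the seed GAGAACU, and no other of the 1319 known miRNAs in the table carried it. The seeds of the other 4 strands were each found in only 1 of these known miRNAs. The predicted miRNAs of the table were not searched. Over 22 positions, counted from 1 at the 5′ end, miR-146b-5p differs from miR-146a-5p by G18A and U21C (the miR-146a-5p base comes first). The 20 other positions are the same, so a read of the first 17 bases would not tell the pair apart. The strands are 21 to 23 bases long, so their counts are compared without a length term.

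The 3 hairpins, from RefSeq, are shown with both mature strands in capitals, to show which arm each count comes from.
miR-146a: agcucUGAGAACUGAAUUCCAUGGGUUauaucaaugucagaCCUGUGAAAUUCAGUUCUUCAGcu
miR-146b: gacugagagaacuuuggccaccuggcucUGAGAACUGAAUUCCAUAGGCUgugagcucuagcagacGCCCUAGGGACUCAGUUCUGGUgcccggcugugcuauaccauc
miR-155: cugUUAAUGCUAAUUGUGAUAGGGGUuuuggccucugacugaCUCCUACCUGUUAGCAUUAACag
On GRCm38, miR-146a lies at chr11:43374397-43374461 on the minus strand, and GENCODE M21 annotates no other gene over it. MiR-146b lies at chr19:46342762-46342870 on the plus strand, inside an intron of the protein-coding gene Mfsd13a. MiR-155 lies at chr16:84714140-84714204 on the plus strand, in an exon of the long noncoding RNA gene Mir155hg.

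Library totals ranged from 8532223 to 9287017 counts in irradiated and from 7730641 to 8522928 in control libraries. Levels below are CPM, counts scaled to a common library total of 1000000 with trimmed-mean (TMM) factors, and changes are log2 fold changes of irradiated over control from edgeR's robust quasi-likelihood test with Benjamini-Hochberg adjustment over all 519 miRNAs tested. The threshold was an adjusted p of 0.05. At that threshold 61.3% of the tested miRNAs were called in either direction, 27.7% higher and 33.5% lower. Summed over 3 thymocyte miRNAs (miR-181a-5p, miR-181b-5p and miR-128-3p), the level was 2699 to 4802 CPM in irradiated and 84770 to 151000 CPM in control libraries, so the control libraries carried the markers of the labelled organ.

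As relative levels, the guide strands of both miR-146 genes were higher after irradiation and that of miR-155 was not detectably changed. The scarce 3p strand of miR-155 was lower. MiR-146a-5p was 2.47-fold and miR-146b-5p 1.72-fold its control level. MiR-155-5p was at 0.920 and miR-155-3p at 0.366 of the control level. Of the 6 strands, 5 passed the filter on low counts, of which 2 were called higher and 1 lower, and for those 3 the groups did not overlap. Of all tested miRNAs, 61.3% were called and 68.6% had groups that did not overlap, so being called is not particular to these strands.

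**Figure D1:**
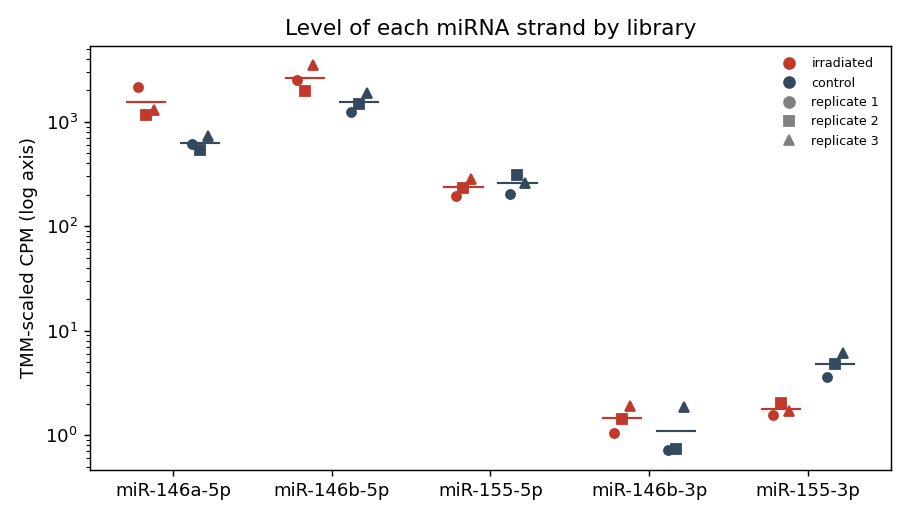
Level of 5 strands in each library, as TMM-scaled CPM on a log axis, with irradiated libraries in red and control libraries in dark blue, replicate numbers by symbol and a line at the mean of 3 libraries. The groups are apart for miR-146a-5p, miR-146b-5p and miR-155-3p and overlap for miR-155-5p and miR-146b-3p.

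MiR-146a-5p (mmu-miR-146a-5p in the table), the NF-kB-induced brake on TRAF6 and IRAK1, was at 2158, 1158 and 1297 CPM in irradiated replicates 1, 2 and 3, against 611, 533 and 725 CPM in control replicates 1, 2 and 3. Every irradiated library lay above every control library, and irradiated replicate 1 stood well above the other irradiated libraries. The means were 1538 ± 542 CPM in irradiated and 623 ± 96.6 CPM in control libraries (SD, n = 3 each). The log2 fold change was 1.304 ± 0.29 (SE), with a 95% interval of 0.65 to 1.96 and an edgeR adjusted p of 0.0040. It was the 108th highest change of the 519. Without irradiated replicate 1 the change was 0.97 (edgeR adjusted p of 0.0038), and it was positive in all 17 alternative fits (0.97 to 1.997). The upper end came from comparing irradiated replicate 1 alone with the 3 controls, where that library is assumed to vary like the controls. The change passed in every alternative fit with more than 1 irradiated library.

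MiR-146b-5p (mmu-miR-146b-5p), which has the same seed, was the most abundant of the 6 strands in every library. It was at 2486, 1974 and 3481 CPM in irradiated replicates 1, 2 and 3, against 1247, 1491 and 1879 CPM in control replicates 1, 2 and 3. The groups did not overlap, but irradiated replicate 2 lay only just above control replicate 3. The means were 2647 ± 766 CPM in irradiated and 1539 ± 318 CPM in control libraries (SD, n = 3 each). The log2 fold change was 0.78 ± 0.28 (SE), with a 95% interval of 0.15 to 1.41 and an edgeR adjusted p of 0.0342. This call was less firm than that of miR-146a-5p. It was lost without irradiated replicate 3 (0.63, edgeR adjusted p of 0.122), without control replicate 1 (0.75, adjusted p of 0.115) and without control replicate 2 (0.75, adjusted p of 0.118). It was also lost when libraries were scaled by their totals (0.63, edgeR adjusted p of 0.115). The change was positive in all 17 alternatives (0.53 to 1.23, the upper end with upper-quartile factors, adjusted p of 0.0031 to 0.122).

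The split of reads between the 2 miR-146 guide strands varied between mice. MiR-146a-5p made up 46.5%, 37.0% and 27.2% of the reads of the pair in irradiated replicates 1, 2 and 3, against 32.9%, 26.3% and 27.8% in control replicates 1, 2 and 3. The share was highest in irradiated replicate 1 and overlapped between groups. The log2 ratio of miR-146b-5p to miR-146a-5p averaged 0.80 ± 0.61 in irradiated and 1.296 ± 0.24 in control libraries (SD, n = 3 each), a difference of −0.50 with an exact two-sided permutation p of 0.3 (adjusted 0.3 over 6 such ratios). Leaving out irradiated replicate 1 gave −0.20 (exact permutation p of 0.6), and leaving out irradiated replicate 3 gave −0.81 (exact permutation p of 0.1). A difference in response between the pair was therefore not shown.

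MiR-155-5p (mmu-miR-155-5p), the guide strand of miR-155, was at 196, 234 and 280 CPM in irradiated replicates 1, 2 and 3 (280.2 in replicate 3), against 205, 307 and 260 CPM in control replicates 1, 2 and 3 (259.7 in replicate 3). The groups overlapped, with irradiated replicate 1 lowest and control replicate 2 highest. The means were 237 ± 42.4 CPM in irradiated and 257 ± 51.4 CPM in control libraries (SD, n = 3 each). The log2 fold change was −0.12 ± 0.27 (SE), with an edgeR adjusted p of 0.717. Its 95% interval, −0.73 to 0.49, spans from 0.604 to 1.401 of the control level. The sign turned with the scaling and with single libraries. It was 0.32 with upper-quartile factors, which also moved the median of all tested miRNAs to 0.44, and −0.31 with library totals, where that median was −0.13. It was 0.09 without irradiated replicate 2 and 0.02 without control replicate 2, and no alternative passed the threshold (edgeR adjusted p of 0.241 to 0.978).

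The 3p strands were scarce. MiR-155-3p (mmu-miR-155-3p) had 12, 17 and 16 counts in irradiated replicates 1, 2 and 3, against 25, 52 and 50 counts in control replicates 1, 2 and 3. As levels these were 1.57, 2.03 and 1.699 CPM in irradiated libraries, against 3.57, 4.83 and 6.13 CPM in control libraries. Every irradiated library lay below every control library. The log2 fold change was −1.45 ± 0.36 (SE), with a 95% interval of −2.26 to −0.64 and an edgeR adjusted p of 0.0065. The call was lost without control replicate 3 (−1.15, edgeR adjusted p of 0.0599), within 0.0065 to 0.0599 over 16 alternatives, and the change was negative in all of them.

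MiR-146b-3p had 8, 12 and 18 counts in irradiated replicates 1, 2 and 3, against 5, 8 and 15 counts in control replicates 1, 2 and 3. The groups overlapped, and the log2 fold change of 0.43 ± 0.51 (SE) did not pass (edgeR adjusted p of 0.470, 95% interval −0.70 to 1.56). It was 1.09 without control replicate 3, 0.67 without irradiated replicate 2, 0.25 without irradiated replicate 3 and 0.17 without control replicate 2, and without control replicate 1 it was 0.295. MiR-146a-3p had 0 counts in all 3 irradiated libraries, against 0, 1 and 3 counts in control replicates 1, 2 and 3. It did not pass the low-count filter and was not tested. A count of 0 allows up to 3 counts, or 0.319 to 0.391 CPM in the irradiated libraries (counting error only), so no fold is given.

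**Figure D2:**
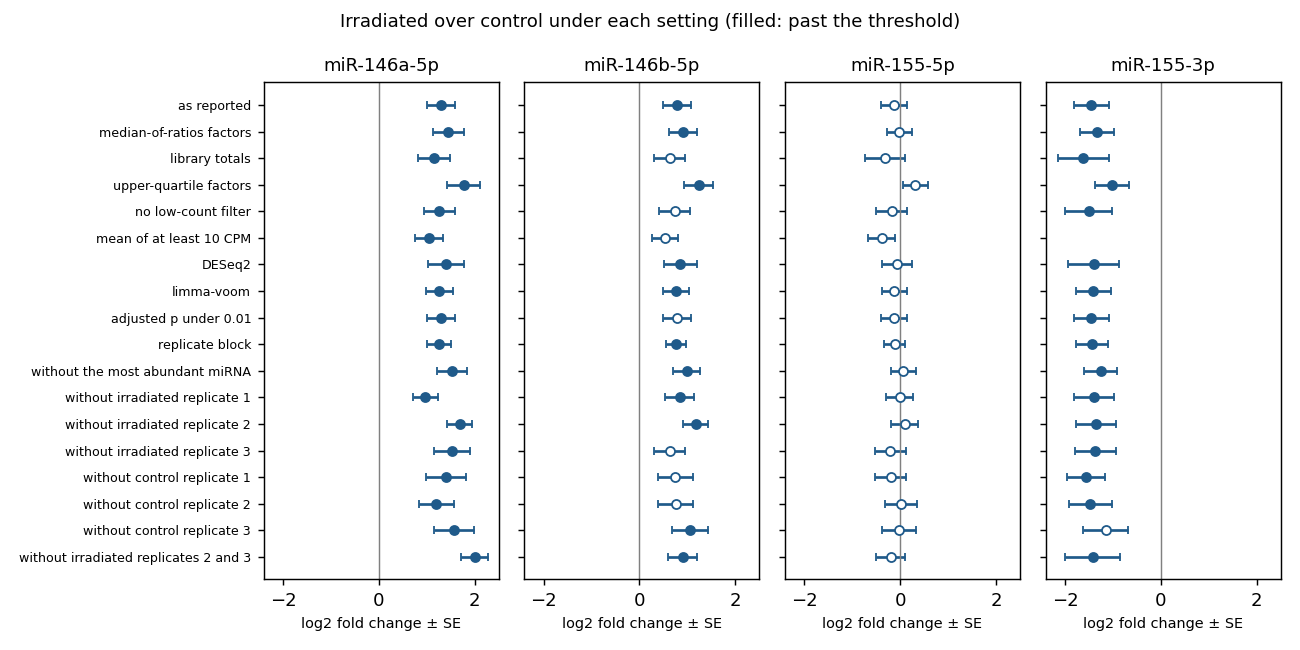
Log2 fold change of irradiated over control with its SE for 4 strands, as reported and under 17 alternatives (16 for miR-155-3p), with filled points past the threshold. MiR-146a-5p stays past it in every fit with more than 1 irradiated library. MiR-146b-5p loses it in 7 alternatives and miR-155-3p in 1, and miR-155-5p lies on both sides of 0. The fit with irradiated replicate 1 as the only irradiated library is shown for the size of the change and is not read as a test.

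For miR-155, the difference between strands did not pass a test, though the groups of its 3p share were apart. The 3p strand made up 0.794%, 0.860% and 0.603% of the hairpin's reads in irradiated replicates 1, 2 and 3, against 1.71%, 1.55% and 2.31% in control replicates 1, 2 and 3. All 3 irradiated shares lay below all 3 control shares. Summed over libraries, there were 136 reads of the 5p strand per read of the 3p strand in irradiated and 54.0 in control thymus. The mean shares were 0.752% ± 0.134 in irradiated and 1.86% ± 0.400 in control libraries (SD, n = 3 each), and the exact two-sided permutation p was 0.1 (adjusted 0.3 over 3 hairpins), the smallest that 3 against 3 libraries allow. The exact binomial 95% intervals of single libraries were wide, 0.345% to 0.977% for irradiated replicate 3 and 1.11% to 2.52% for control replicate 1, and those of irradiated replicates 1 and 2 overlapped those of control replicates 1 and 2.

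Set among the 173 hairpins with a mean of at least 5 counts on both strands, the log2 ratio of 3p to 5p reads of miR-155 differed by −1.28 ± 0.32 (SE) between irradiated and control libraries, with a 95% interval of −2.03 to −0.54. The limma adjusted p over these hairpins was 0.0541, so it did not pass, and 3.47% of the hairpins did. It was the 34th largest of the 173 in size and the 18th most negative, while the median over hairpins was −0.03. For miR-146b the difference was −0.27 ± 0.37 (SE, limma adjusted p of 0.644). The 3p share of miR-146b was 0.0420%, 0.0725% and 0.0549% in irradiated replicates 1, 2 and 3, against 0.0572%, 0.0498% and 0.0979% in control replicates 1, 2 and 3, and these overlapped (exact permutation p of 0.6). The 3p share of miR-146a was 0 in all 3 irradiated libraries and at most 0.0508%, in control replicate 3.

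**Figure D3:**
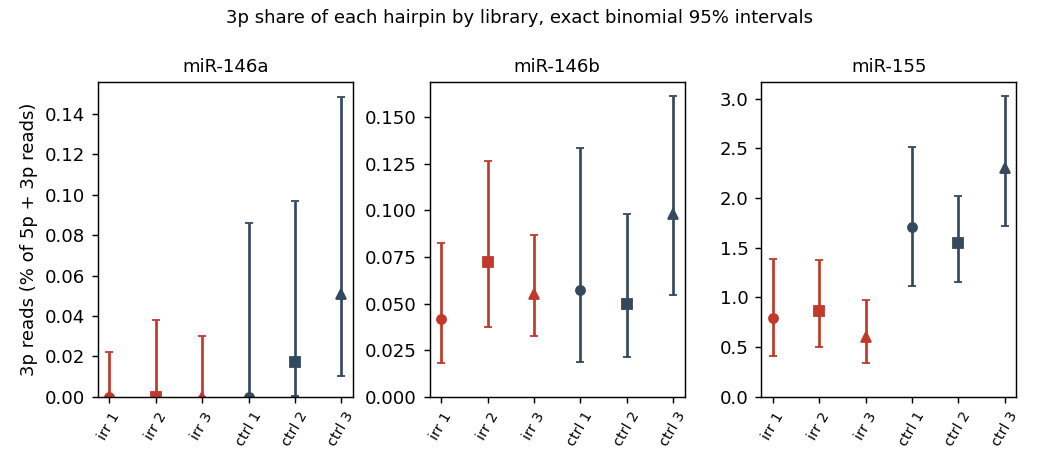
Reads of the 3p strand as a percentage of all reads of the hairpin in each library (irr, irradiated, in red; ctrl, control, in dark blue), with exact binomial 95% intervals and a separate axis for each hairpin. The 3 irradiated values of miR-155, 0.603% to 0.860%, lie below the 3 control values, 1.55% to 2.31%.

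In rank among all miRNAs of a library, miR-146b-5p stood 35th, 43rd and 30th in irradiated replicates 1, 2 and 3, against 58th, 51st and 50th in control replicates 1, 2 and 3. MiR-146a-5p stood 41st, 58th and 55th in irradiated libraries, against 76th, 84th and 73rd in control libraries. MiR-155-5p stood between 106th and 116th in irradiated and between 103rd and 117th in control libraries. The order by level was miR-146b-5p, miR-146a-5p, miR-155-5p in every library. In control libraries miR-146b-5p had 2.04 to 2.80 times the reads of miR-146a-5p, and in irradiated libraries 1.15 to 2.68 times. Below them came miR-155-3p and miR-146b-3p, whose levels did not overlap in control libraries (3.57 to 6.13 and 0.713 to 1.84 CPM) but did in irradiated libraries (1.57 to 2.03 and 1.04 to 1.91 CPM).

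As shares of all counts, miR-146a-5p held 0.145% ± 0.0404 in irradiated and 0.0654% ± 0.0132 in control libraries (SD, n = 3 each), with an exact permutation p of 0.1 (adjusted 0.3 over 6 strands). MiR-146b-5p held 0.256% ± 0.0854 in irradiated and 0.165% ± 0.0555 in control libraries, and without TMM scaling its groups overlapped (exact permutation p of 0.2, adjusted 0.4). The difference of 0.0901 percentage points was 0.0414 without irradiated replicate 3 and 0.0587 without control replicate 1. The 6 strands together held 0.428%, 0.331% and 0.513% of the counts in irradiated replicates 1, 2 and 3, against 0.170%, 0.326% and 0.284% in control replicates 1, 2 and 3. The lowest irradiated share lay just above the highest control share.

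Ratios within a library do not depend on scaling. The log2 ratio of miR-155-5p to miR-146a-5p was −3.46, −2.31 and −2.21 in irradiated replicates 1, 2 and 3, against −1.58, −0.79 and −1.48 in control replicates 1, 2 and 3. The groups were apart, by −1.38 on average (exact permutation p of 0.1, adjusted 0.12 over 6 ratios). For miR-155-5p over miR-146b-5p the values were −3.67, −3.08 and −3.63 in irradiated libraries, against −2.61, −2.28 and −2.85 in control libraries, a difference of −0.88 (exact permutation p of 0.1, adjusted 0.12). MiR-155-5p was thus lower relative to each miR-146 guide strand in all 3 irradiated libraries than in any control library, though 3 against 3 libraries cannot give a p under 0.1.

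MiR-142a-3p, a miRNA made in all blood cells, was at 943 to 1020 CPM in irradiated and 6639 to 8112 CPM in control libraries. Relative to it, all 3 guide strands were higher after irradiation. The log2 ratio of miR-146a-5p to miR-142a-3p was 1.08, 0.30 and 0.35 in irradiated replicates 1, 2 and 3, against −3.48, −3.93 and −3.20 in control replicates 1, 2 and 3. MiR-146a-5p thus outnumbered miR-142a-3p in every irradiated library and had at most 0.109 of its reads in control libraries. It did not outnumber the 5p strand of that hairpin, miR-142a-5p, in any irradiated library. In irradiated replicates 1, 2 and 3, miR-142a-5p had 33852, 22240 and 29122 reads, against 16539, 9698 and 12217 of miR-146a-5p. Over miR-142a-3p, the differences between groups were 4.11 for miR-146a-5p, 3.62 for miR-146b-5p and 2.74 for miR-155-5p. Each had an exact permutation p of 0.1 (adjusted 0.12). MiR-142a-3p itself changed by −2.86 ± 0.24 (SE, edgeR adjusted p of 1.8e-05), which is part of each of these differences. Against the other strand of that hairpin, miR-142a-5p, which changed by −1.39, the differences were smaller, 2.67 for miR-146a-5p, 2.17 for miR-146b-5p and 1.29 for miR-155-5p (exact permutation p of 0.1 each, a comparison chosen after seeing the data).

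**Figure D4:**
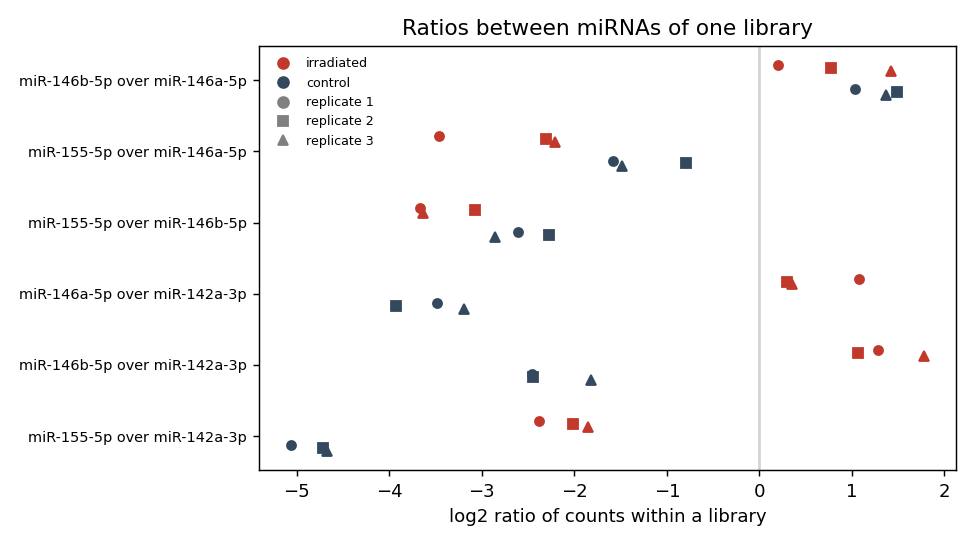
Log2 ratio of the counts of 2 miRNAs within each library, with irradiated libraries in red above control libraries in dark blue and replicate numbers by symbol. The groups overlap for miR-146b-5p over miR-146a-5p and are apart for the other 5 ratios, most widely for miR-146a-5p over miR-142a-3p (difference 4.11).

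Other miRNAs linked to NF-kB were described from 2 lists of general knowledge. The lists were chosen with earlier results of these data known, so their counts are descriptions. Of 13 miRNAs whose transcription or processing responds to NF-kB or to inflammatory stimuli, all 13 were tested. The test called 7 of them higher and none lower, and 6 missed the threshold. The median log2 fold change was 0.83, against 0.01 over all tested miRNAs, of which 27.7% were called higher. MiR-125a-5p, which shares a cluster with miR-99b and let-7e, rose by 1.49 ± 0.25 (SE, edgeR adjusted p of 8.2e-04). Its cluster partners miR-99b-5p and let-7e-5p rose by 1.12 and 1.34, and calls within this cluster are not independent of each other. MiR-222-3p rose by 1.39 (edgeR adjusted p of 0.00135), while miR-221-3p, made from the same transcript, was at 0.60 (adjusted p of 0.0567).

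MiR-9-5p, which lowers the NF-kB subunit NFKB1 in human cells, rose by 1.17, miR-21a-3p by 1.098 and miR-147-3p, a miRNA induced in macrophages by Toll-like receptor ligands, by 0.69. The CREB- and inflammation-responsive miR-132-3p and miR-212-3p were at −0.36 and −0.62 and did not pass. MiR-9-3p, miR-21a-5p and miR-187-3p did not pass either (0.41, 0.83 and 0.06). The count of 7 was 4 without control replicate 2, 5 when scaled by library totals and 9 by upper-quartile factors, and the list median was positive in all of these. Without irradiated replicate 1, 6 were higher and 1 lower.

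Of 7 miRNAs known to act on proteins of the NF-kB pathway, 2 rose and 4 fell, and the remaining 1 missed the threshold. Among all tested miRNAs 27.7% were called higher and 33.5% lower. The median was −2.24. The number that rose was 1 without irradiated replicate 3 or control replicate 2 and 3 without irradiated replicate 1. MiR-199a-3p, a fibroblast miRNA that lowers IKK-beta in human cells, rose by 3.07, and miR-125b-5p rose by 0.79. MiR-181b-5p, which lowers importin-alpha3 in endothelium and is abundant in thymocytes, fell by 5.39 on the log2 scale. MiR-301a-3p, which lowers the NF-kB repressor NKRF in human cells, fell by 3.04, miR-16-5p by 2.48 and miR-15a-5p by 2.24. The neutrophil and monocyte miRNA miR-223-3p did not pass (0.59, edgeR adjusted p of 0.388).

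**Figure D5:**
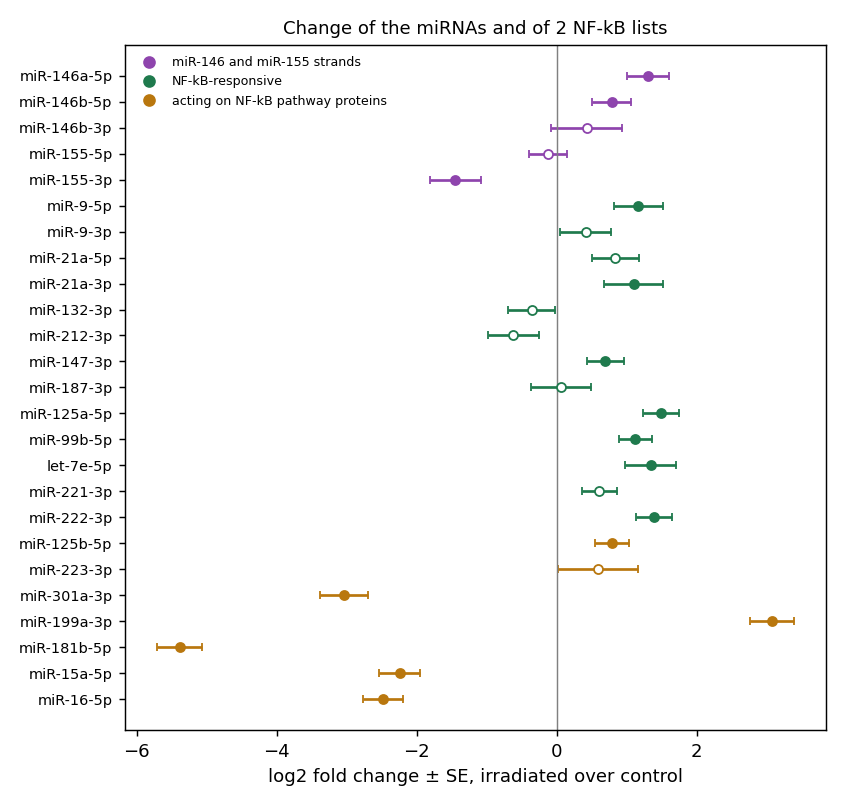
Log2 fold change of irradiated over control with its SE for the 5 tested strands of miR-146 and miR-155, for 13 NF-kB-responsive miRNAs and for 7 miRNAs that act on NF-kB pathway proteins, with filled points past an edgeR adjusted p of 0.05. In the second group 7 are filled, all to the right of 0, and in the third group 2 are filled to the right and 4 to the left.

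The miRNAs with the most similar profile over the 6 libraries were found by the root mean square difference of centred log2 CPM among 308 other miRNAs with a mean of at least 10 CPM. Those nearest to miR-146a-5p were miR-125b-1-3p (0.132), miR-100-5p (0.180) and miR-27b-5p (0.187). Those nearest to miR-146b-5p were miR-1839-5p (0.187), miR-147-3p (0.200) and miR-3081-3p (0.282). Those nearest to miR-155-5p were miR-192-5p (0.145), miR-1298-5p (0.185) and miR-872-5p (0.207). MiR-125b-1-3p was at 133 CPM in irradiated replicate 1, against 71.9 and 96.0 CPM in irradiated replicates 2 and 3. It was at 36.3 to 40.7 CPM in control libraries. That it was highest in irradiated replicate 1, as was miR-146a-5p, follows from choosing it for the nearest profile.

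Markers of several cell types moved with the groups. The 3 myeloid miRNAs (miR-223-3p, miR-223-5p and miR-511-3p) summed to 49.2, 110.3 and 163 CPM in irradiated replicates 1, 2 and 3, against 32.7, 53.3 and 60.2 CPM in control replicates 1, 2 and 3, and 1 of the 3 was called higher. Irradiated replicate 1, where miR-146a-5p was highest, had the lowest myeloid sum of its group, within the control range. The single myeloid markers of that library went opposite ways. MiR-223-5p (32.2 CPM) and miR-511-3p (4.96 CPM) lay above every control library, where they reached at most 15.5 and 3.25 CPM. MiR-223-3p, at 12.0 CPM, lay below every control library, where it was at least 21.3 CPM. Of the fibroblast and smooth-muscle miRNAs 3 of 5 were called higher, of the endothelial 1 of 2 and of the epithelial 4 of 5, where 27.7% of all tested miRNAs were called higher. Of the mature lymphocyte miRNAs 0 of 2 were called in edgeR, where 61.3% of all were. The 3 striated-muscle miRNAs summed to 602, 20120 and 13400 CPM in irradiated replicates 1, 2 and 3, against 202 to 480 CPM in control libraries (480.2 at most). The 3 erythroid miRNAs summed to 604, 5028 and 1982 CPM in irradiated replicates 1, 2 and 3, against 479.9 to 724 CPM in control libraries. With irradiated replicate 1 as the only irradiated library, the changes were 1.997 for miR-146a-5p, 0.90 for miR-146b-5p and −1.42 for miR-155-3p. These are given as values without a test, since the fit would assume that the single library varies like the control libraries, whereas the irradiated libraries differed more among themselves (miR-146a-5p had an SD of 542 CPM in irradiated and 96.6 CPM in control libraries). The thymocyte miRNAs miR-181a-5p, miR-181b-5p and miR-128-3p changed by −4.83, −5.39 and −5.70 on the log2 scale. The part of the thymocyte, myeloid, stromal and epithelial markers in the changes of miR-146a-5p and miR-146b-5p was not tested.

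In the authors' deposited table the log2 fold change of irradiated over control is 1.403 for miR-146a-5p, 0.86 for miR-146b-5p, −0.07 for miR-155-5p and −1.399 for miR-155-3p, with adjusted p-values of 5.8e-04, 0.0305, 0.881 and 0.0244. These come from the same libraries and are no separate check.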

How the data were processed

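Small RNA of whole thymus was sequenced in 3 irradiated and 3 control mice. Per the file headers, the authors deposited raw read counts for each mature miRNA. They also deposited their log2 fold change of irradiated over control, with its p-value before and after adjustment, and the submitters' processing notes name DESeq2 1.10.1. The aligner, counter and build were not given in the sources used here. Among the count columns, 6 belong to samples no label describes and were left out. The labels call the molecule polyA RNA.

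Counts were tested in R 4.3.3 with edgeR 4.0.16 (TMM factors from 0.823 to 1.39, filterByExpr with a minimum count of 10, robust quasi-likelihood test, SE as the change over the root of F). Deposited counts were used unchanged. The test was checked on simulated data with the same spread in both groups. That check does not cover the larger differences among the irradiated libraries. Hairpin strands were compared with limma 3.58.1 on log2 ratios of counts plus 0.5, a test chosen after seeing the data. Single ratios and shares were compared by exact permutation over libraries, and binomial intervals cover counting error only, since reads carry no molecular identifiers. Intervals are at 95%, and calls need an adjusted p under 0.05. Libraries of a group differed by more than sampling noise, with chi-square per degree of freedom of at least 277. The strands and lists were chosen with earlier results of these data known. The text names the 6 strands, the lists and, per guide strand, the 3 miRNAs with the nearest profile. Rank order, hairpin shares by group and marker sums are descriptions. Alternatives were other scaling factors, filters, DESeq2 1.42.0, limma-voom, a threshold of 0.01, the replicate number as a block, and left-out libraries.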

Additional observations from a re-analysis of the deposited data

How the results depend on the processing

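MiR-146a-5p kept its direction in all 17 alternatives and its call in each with more than 1 irradiated library, and leaving out 1 library gave 0.97 to 1.68. MiR-146b-5p kept its direction in 17 and lost its call in 7. Its call was lost with library totals (0.63), without the low-count filter (0.73), with only miRNAs averaging 10 CPM or more (0.53) and at a threshold of 0.01 (0.78), and leaving out 1 library gave 0.63 to 1.17. MiR-155-3p gave −1.56 to −1.15 with 1 library left out, and it was not tested with a mean of at least 10 CPM. MiR-155-5p, never called, turned sign with upper-quartile factors (0.32) and without the most abundant miRNA (0.0691), and ranged from −0.2034 to 0.0946 with 1 library left out. MiR-146b-3p was not called in any fit. The count of miRNAs called was 318, and 209 with a mean of at least 10 CPM, where 311 were tested. The percentage of calls that were higher was 45.3% with TMM, 38.4% when scaled by library totals and 59.7% by upper quartiles. For the share of library counts, the difference of irradiated minus control was −0.0114 to 0.00164 percentage points for miR-155-5p with 1 library left out, and −5.1e-07 to 6.12e-05 for miR-146b-3p. The difference in the 3p share of miR-146b was −0.0211 to 0.0030 percentage points. The other shares and the 6 ratios kept their sign. With the replicate number as a block, 298 miRNAs were called, and the block changed no call of the 5 strands tested. The numbers were not shown to pair the libraries. Deviations of same-numbered libraries correlated at 0.0699, −0.0343 and 0.212, and 3 of the 6 libraries correlated best with their own number. So few libraries cannot exclude a pairing. MiR-155-3p, with 12 to 52 counts per library, is limited by depth.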
